A study of Mus musculus with 9 samples.

Results

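Border-associated macrophages were followed through 7 transcripts that mark them, Mrc1, Cd163, Pf4, Cbr2, F13a1, Ms4a7 and Stab1, in the brains of mice with cerebral venous sinus thrombosis (CVST). The 7 genes were picked by symbol from a count table of 20731 gene symbols, and all 7 were among the 14746 genes with enough reads for testing. RNA was sequenced on day 2 after modelling from 9 male C57BL/6J mice aged 8 to 10 weeks, with 3 mice in each of 3 groups. In every mouse a thread soaked in ferric chloride had been laid on the superior sagittal sinus to form a clot, so no group was free of thrombosis and no sham mice were analysed here. The CVST group had thrombosis alone. The CVST+Ligation group also had its deep cervical lymph nodes ligated, which blocks the route by which meningeal lymphatic vessels drain. The 4-PBA group had thrombosis, ligation and 4-phenylbutyric acid, a chemical chaperone that lowers endoplasmic reticulum stress, at 100 mg/kg, given according to the methods 30 min before modelling and according to the description of the data set after ligation. According to the methods control mice were given the solvent in the same volume, without saying which groups are meant. The sample labels call the tissue brain and the description of the data set names the cortex.

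Border-associated macrophages are the resident macrophages of the meninges, the choroid plexus and the spaces around brain vessels, as opposed to microglia, which live within the brain tissue itself. They take up debris and soluble proteins from the cerebrospinal fluid through endocytic receptors, and many of them arise before birth and renew themselves locally. Both cell types depend on signals through the CSF1 receptor and on the transcription factor PU.1. The comparisons ask whether the RNA of border-associated macrophages differed once lymphatic drainage was blocked, and once 4-PBA was added. In pieces of whole tissue, fewer cells of a type and less RNA per cell cannot be told apart.

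Between 18100739 and 25091498 reads per mouse were counted on genes. Levels are given as CPM, reads of a gene scaled to the size of the library after TMM, which corrects for library composition, and a floor of 3 counts corresponded to 0.114 to 0.163 CPM, which covers counting error only. The 63 values of the 7 genes ranged from 4 to 1008 counts, so none lay at or below this floor. Across genes, the libraries of a group had a Pearson's r of log2 CPM of 0.938 to 0.976. The 2 lowest values belonged to the library CVST+Ligation 2, which also held 1545 CPM summed over 9 genes of cerebellar neurons, against 202 to 370 CPM in the other libraries, and the comparisons, the closest pairs and the lists of macrophage genes are also given without it. The leave-one-out values of the lists were added after seeing the data. Summed over 6 defining microglial genes, the libraries held 388 to 531 CPM. Genes that mark brain regions also moved with the groups. The summed level of 8 genes of striatal neurons was 1053 to 1772 CPM in the CVST group, 195 to 515 CPM in the CVST+Ligation group and 254 to 1281 CPM in the 4-PBA group. Genes of midbrain and brainstem neurons summed to 18.9 to 20.6 CPM in the CVST group, 165 to 452 CPM in the CVST+Ligation group and 210 to 223 CPM in the 4-PBA group. Genes of hypothalamic neurons separated the 4-PBA mice from both other groups, with sums of 5.19 to 42.1 CPM in the CVST group, 5.46 to 56.6 CPM in the CVST+Ligation group and 297 to 579 CPM in the 4-PBA group, and 6 of 7 tested were higher between 4-PBA and CVST+Ligation at an unadjusted p below 0.05, beside 1.81% of all genes. The part of these differences in the results on the 7 genes was not tested.

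The 7 genes lie on 7 different chromosomes of the mouse genome (GRCm38, GENCODE vM21), and all are annotated as protein-coding. Mrc1 covers chr2:14229392-14332057 on the plus strand with 30 exons in its longest transcript and has the microRNA gene Mir511 within it on the same strand. Cd163 covers chr6:124304656-124330527 on the plus strand with 17 exons, and Pf4 covers only chr5:90772435-90773383 on the plus strand with 3 exons. On the minus strand lie Cbr2 at chr11:120729489-120732114 with 8 exons, Ms4a7 at chr19:11321039-11336146 with 5 exons, F13a1 at chr13:36867178-37050244 with 15 exons and Stab1 at chr14:31139013-31168641 with 69 exons. F13a1 overlaps the genes Gm49144 and Gm30489, and Stab1 overlaps Nt5dc2, each on the opposite strand. The methods name an orientation mode for the aligner, but whether the counting used strand is not given in the sources used here, so reads of these overlapping genes may not be told apart.

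The bases before the start sites were searched for short motifs, since transcripts of 1 cell type are often controlled by shared factors. RefSeq (GRCm38.p6) gave 9 windows of 250 bases before a start site for the 7 genes. The letters AGGAAGT, a core that PU.1 and related ETS factors can bind, occurred on either strand in 3 of these 9 windows, 1 each for Mrc1, Pf4 and F13a1, and in 7.686% of all 32851 windows of this length. These 3 windows are shown because they hold the motif and because Pf4 and F13a1 were the pair whose levels ran closest together from mouse to mouse, as given with the pairs. They are written 5′ to 3′ along the strand of the gene, with the motif or its reverse complement in capitals, and the last bases of the Mrc1 window lie in the first exon that GENCODE gives.
Mrc1, chr2:14229164-14229413, plus strand: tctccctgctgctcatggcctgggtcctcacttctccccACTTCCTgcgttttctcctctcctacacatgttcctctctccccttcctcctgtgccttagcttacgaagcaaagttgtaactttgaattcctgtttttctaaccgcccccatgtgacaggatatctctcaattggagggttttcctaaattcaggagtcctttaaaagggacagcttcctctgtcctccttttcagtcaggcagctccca
Pf4, chr5:90772185-90772434, plus strand: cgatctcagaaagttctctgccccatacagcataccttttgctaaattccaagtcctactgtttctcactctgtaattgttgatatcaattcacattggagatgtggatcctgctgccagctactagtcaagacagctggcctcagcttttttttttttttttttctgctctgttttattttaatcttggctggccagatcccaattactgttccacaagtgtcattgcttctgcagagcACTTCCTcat
F13a1, chr13:37049214-37049463, minus strand, its second start site, inside the annotated gene: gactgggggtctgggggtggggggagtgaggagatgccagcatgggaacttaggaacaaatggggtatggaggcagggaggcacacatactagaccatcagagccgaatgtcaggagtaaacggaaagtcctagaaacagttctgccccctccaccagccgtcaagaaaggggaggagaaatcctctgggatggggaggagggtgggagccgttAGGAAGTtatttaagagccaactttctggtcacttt

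The motif stood 211 bases before the start site of Mrc1, 10 bases before that of Pf4 and 36 bases before that of F13a1. In Mrc1 and Pf4 it lay on the reverse strand, and in F13a1 on the strand of the gene. The windows of Ms4a7 held letters of other motifs instead, an AP-1 site (TGANTCA, in 6.749% of all windows) 81 bases and an interferon regulatory factor site (GAAANNGAA, in 7.129%) 71 and 148 bases before its start sites. The windows of Cd163, Cbr2 and Stab1 held none of the motifs searched. A TATA box, a MAF site, a C/EBP site and a STAT site were searched too and were found in no window of the 7 genes, against 12.37%, 3.811%, 1.738% and 7.02% of all windows. These matches describe letters and were not tested for binding.

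Per length, in FPKM (reads scaled to the length of a gene and to library size, from the authors' values, most of whose lengths are coding lengths), Pf4 had the highest level of the 7 genes over the 9 mice. Its mean FPKM was 5.06 ± 2.98 (SD, n = 9). Stab1 followed with 2.76 ± 1.28 FPKM, Cbr2 with 2.07 ± 0.859 FPKM and Mrc1 with 1.12 ± 0.884 FPKM. Cd163 (0.758 ± 0.325 FPKM), F13a1 (0.628 ± 0.547 FPKM) and Ms4a7 (0.627 ± 0.331 FPKM) were lowest. In this order the means of neighbours differed by less than the larger of their SDs, except for Cbr2 and Mrc1. The FPKM of Pf4 rests on a length of 316 bases and that of Stab1 on 7713 bases, as the authors' values imply, and with the longest GENCODE transcript in place of these lengths, an alternative added after seeing the data, Pf4 (2.72 ± 1.60 FPKM) and Stab1 (2.66 ± 1.24 FPKM) differed by less than their SDs and Ms4a7 was the lowest (0.142 ± 0.0752 FPKM). The order differs from that of the counts, in which Stab1 made up 4278 of the 6770 reads on the 7 genes. All levels below are in CPM.

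Mrc1, Cd163 and Stab1 encode endocytic receptors. Mrc1 encodes the mannose receptor CD206, which binds and internalizes glycoproteins. Its levels were 1.02, 13.3 and 2.55 CPM in CVST mice 1 to 3, 4.79, 7.21 and 1.36 CPM in CVST+Ligation mice 1 to 3 and 2.44, 6.61 and 4.31 CPM in 4-PBA mice 1 to 3. The lowest and the highest of these 9 values both belonged to the CVST group, where they differed 13-fold, and the values of the other groups fell between them. Group means were 5.61 ± 6.67 (SD, n = 3), 4.46 ± 2.94 and 4.45 ± 2.09 CPM in the order CVST, CVST+Ligation and 4-PBA.

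Cd163 encodes the scavenger receptor for haptoglobin-bound hemoglobin. The CVST mice had 4.08, 2.53 and 0.922 CPM, the CVST+Ligation mice 2.27, 3.92 and 1.099 CPM and the 4-PBA mice 3.03, 3.37 and 2.36 CPM. The CVST group again held both extremes, and the 4-PBA mice were closest to each other. Means were 2.51 ± 1.58, 2.43 ± 1.42 and 2.92 ± 0.511 CPM in the same order of groups.

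Stab1 encodes stabilin-1, a scavenger receptor of macrophages and some endothelial cells that clears modified lipoproteins and matrix fragments. It was the most abundant of the 7 in counts, with 14.8, 34.5 and 20.9 CPM in the CVST mice, 17.0, 22.4 and 9.54 CPM in the CVST+Ligation mice and 17.1, 15.9 and 38.4 CPM in the 4-PBA mice. The lowest value was that of CVST+Ligation 3 and the highest that of 4-PBA 3, while CVST 1, CVST+Ligation 1 and 4-PBA 1 were all within 14.8 to 17.1 CPM. Means were 23.4 ± 10.04, 16.3 ± 6.47 and 23.8 ± 12.6 CPM.

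Pf4 and F13a1 encode proteins of the clotting system that macrophages also make. Pf4 encodes platelet factor 4, a chemokine stored in platelet granules. Its levels were 0.850, 2.13 and 0.651 CPM in the CVST group, 1.24, 2.53 and 0.615 CPM in the CVST+Ligation group and 0.975, 2.27 and 2.97 CPM in the 4-PBA group. The highest value was that of 4-PBA 3 and the lowest that of CVST+Ligation 3, and the ranges of the groups overlapped. Means were 1.21 ± 0.802, 1.46 ± 0.974 and 2.07 ± 1.01 CPM.

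F13a1 encodes the A subunit of coagulation factor XIII, the transglutaminase that crosslinks fibrin. The CVST mice had 0.425, 1.51 and 0.217 CPM, the CVST+Ligation mice 0.827, 3.35 and 0.176 CPM and the 4-PBA mice 0.921, 1.85 and 2.90 CPM. Both its lowest and its highest value belonged to the CVST+Ligation group, 19.1-fold apart, the widest range of the 7 genes. Means were 0.717 ± 0.693, 1.45 ± 1.68 and 1.89 ± 0.988 CPM, and in counts the values ran from 4 to 76.

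Because Pf4 is also a platelet transcript, platelet genes were read in the same libraries. The defining platelet genes Ppbp, Gp9 and Tubb1 reached at most 12, 14 and 10 counts in a library and were at 0 in 2, 1 and 3 of the 9 libraries. Itga2b, the remaining one, had more, at 54 to 153 counts or 2.83 to 5.83 CPM in a library. The sum of these defining platelet genes, most of it from Itga2b, was 3.91 to 4.89 CPM in the CVST group, 3.81 to 5.23 CPM in the CVST+Ligation group and 3.31 to 6.29 CPM in the 4-PBA group. Of the 11 platelet and megakaryocyte genes read, 5 were tested, and all 5 had a log2 fold change below 0 after ligation, with a median of -0.42 and 2 at an unadjusted p below 0.05, beside 4.18% of all genes lower at that level. These were Gp1bb, a chain of the platelet receptor for von Willebrand factor (-0.79, SE 0.27), and Nrgn (-1.22, SE 0.37), which forebrain neurons also express strongly. The sum of the 11 was 1107 to 1372 CPM in the CVST group, 207 to 712 CPM in the CVST+Ligation group and 338 to 379 CPM in the 4-PBA group, nearly all of it from Nrgn, whose group means were 1193, 512 and 353 CPM. Pf4 itself had 12 to 78 counts. The part of platelet RNA in its level was not tested.

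Cbr2 encodes carbonyl reductase 2, an enzyme that reduces carbonyl compounds. Its levels were 0.935, 1.91 and 1.52 CPM in the CVST group, 1.16, 2.11 and 0.791 CPM in the CVST+Ligation group and 1.52, 2.65 and 1.03 CPM in the 4-PBA group. It had the narrowest range of the 7 genes, 3.35-fold over the 9 mice. Means were 1.45 ± 0.489, 1.35 ± 0.682 and 1.73 ± 0.832 CPM.

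Ms4a7 encodes a membrane protein of the MS4A family that marks border-associated macrophages against microglia. It was the lowest of the 7 in CPM, with 0.170, 0.621 and 0.325 CPM in the CVST mice, 0.579, 0.670 and 0.264 CPM in the CVST+Ligation mice and 0.650, 1.01 and 0.305 CPM in the 4-PBA mice. These values rest on 4 to 24 counts each, and the ranges of the groups overlapped. Means were 0.372 ± 0.229, 0.504 ± 0.213 and 0.655 ± 0.353 CPM.

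**Figure D1:**
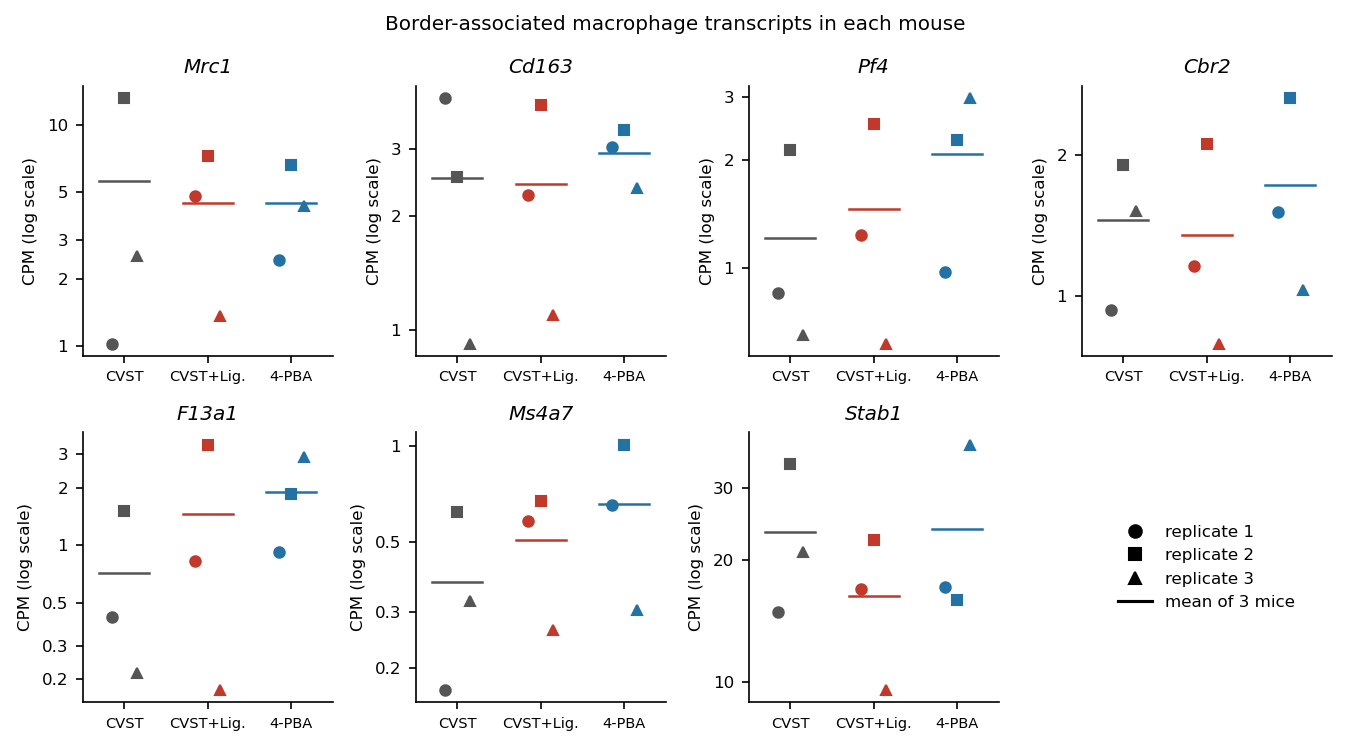
Level of each of the 7 transcripts in each mouse, in CPM on a log axis that differs between panels, by group, with the symbol showing the replicate number and the bar the mean of 3 mice. The groups overlap in every panel, and the lowest and highest Mrc1 values, 1.02 and 13.3 CPM, both belong to the CVST group.

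Mice of the same group varied widely in the 7 transcripts. The SD of log2 CPM within groups was 1.36 for Mrc1, 1.49 for F13a1, 0.90 for Pf4, 0.83 for Cd163, 0.81 for Ms4a7, 0.65 for Stab1 and 0.64 for Cbr2, where the median of all genes tested was 0.30. Between 83.4% and 97.6% of the genes tested had a smaller SD than a given one of the 7. Counting error was smaller than this spread. In 17 of the 21 combinations of gene and group the coefficient of variation of CPM was more than 2 times that expected from the counts, and it reached 119% for Mrc1 in the CVST group. Summed over the 7 genes, levels were 22.3, 56.4 and 27.1 CPM in the CVST mice, 27.9, 42.2 and 13.8 CPM in the CVST+Ligation mice and 26.7, 33.7 and 52.3 CPM in the 4-PBA mice. CVST+Ligation 3 held the lowest value for 4 of the 7 genes and was above the median of the 9 mice for none. CVST+Ligation 2 was above that median for all 7, and CVST 2 and 4-PBA 2 were above it for 6 each. Relative to the 6 defining microglial genes, the sum of the 7 was 4.62%, 10.6% and 5.56% in the CVST mice, 6.44%, 9.998% and 3.57% in the CVST+Ligation mice and 6.28%, 8.26% and 11.2% in the 4-PBA mice. The groups overlapped in this ratio as they did in the sum.

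**Figure D2:**
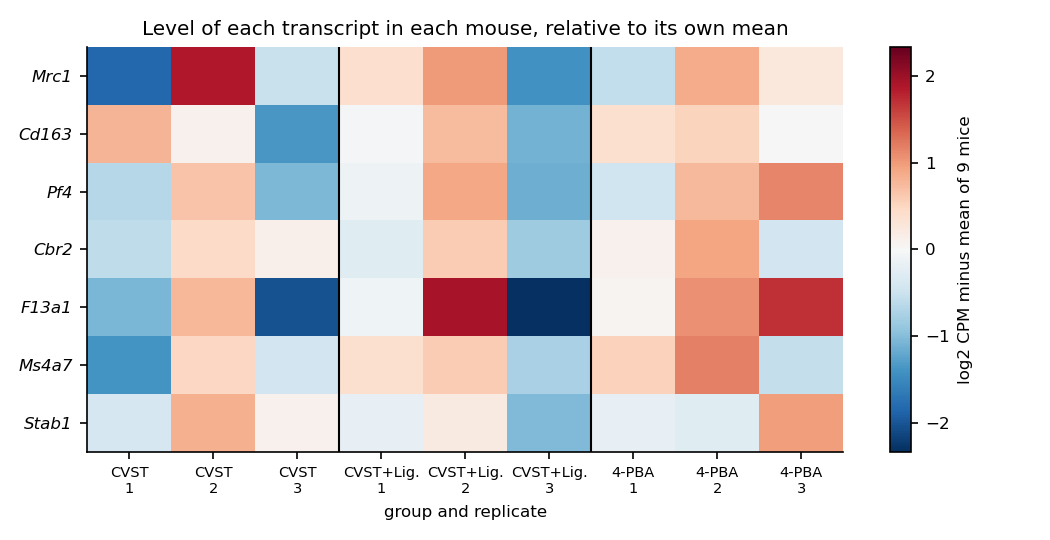
Log2 CPM of each of the 7 transcripts in each mouse minus the mean of that transcript over the 9 mice, with red above and blue below the mean and vertical lines between the groups. CVST+Ligation 2 is above the median for all 7 transcripts and CVST+Ligation 3 for none, so the columns of mice within a group differ in color.

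Between the CVST+Ligation and CVST groups no difference was detected for any of the 7 genes. In edgeR's quasi-likelihood test 0 of the 7 passed an adjusted p of 0.05 and 0 had an unadjusted p below 0.05, beside 0.0203% and 9.64% of all 14746 genes tested. The values of the 2 groups overlapped for all 7, while they did not overlap for 13.8% of all genes. Mrc1 had a log2 fold change of -0.34 (SE 0.87, adjusted p = 0.914, edgeR) after ligation, and its 95% interval ran from a 0.206-fold to a 3.04-fold level. Cd163 (-0.06), Cbr2 (-0.11) and Stab1 (-0.52) had values below 0 as well, and Pf4 (0.26), Ms4a7 (0.43) and F13a1 (0.98) had values above 0, the last with an SE of 0.98 and an interval from 0.429-fold to 9.13-fold. The median of the 7 was -0.06, beside 0.00 for all genes. Adjusted p-values in edgeR ranged from 0.716 to 0.981. The intervals of 6 of the 7 genes held both a fold of 0.5 and a fold of 2, so for these genes changes of that size in either direction were not excluded. Without CVST+Ligation 2, Mrc1 was at -0.87, Cd163 at -0.58, Cbr2 at -0.57, Stab1 at -0.82, Pf4 at -0.39, F13a1 at -0.52 and Ms4a7 at 0.18, and 0 of the 7 had an unadjusted p below 0.05. Without CVST 2, the mouse with the highest Mrc1, the log2 fold change of Mrc1 was 1.33 (SE 0.75, adjusted p = 0.628, edgeR). Without CVST+Ligation 3 it was 0.09, so its sign turned with the mouse left out.

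Between the 4-PBA and CVST+Ligation groups the fitted log2 fold changes of the 7 genes were 0.01 to 0.55, and none passed the test. Of the 7, 0 had an adjusted and 0 an unadjusted p below 0.05, beside 0% and 3.23% of all genes tested, and the groups overlapped for all 7, where they did not for 7.73% of all genes. Stab1 had a log2 fold change of 0.55 (SE 0.44) and a 95% interval from 0.735-fold to 2.91-fold. The values were 0.52 (SE 0.65) for Pf4, 0.40 (SE 0.95) for F13a1, 0.37 (SE 0.65) for Ms4a7, 0.36 (SE 0.51) for Cbr2, 0.27 (SE 0.57) for Cd163 and 0.01 (SE 0.87) for Mrc1. Every adjusted p in edgeR was 0.999831. The median of the 7 was 0.37, beside -0.02 for all genes, of which 47.0% were above 0. The 7 values share the same CVST+Ligation mice and move together from mouse to mouse, so they are not 7 separate observations. Without CVST+Ligation 3, the mouse that held the lowest value for 4 of the genes, Mrc1 was at -0.43, F13a1 at -0.13 and Cd163 at -0.08. All 7 values were larger without CVST+Ligation 2, at 1.92 (SE 0.95, adjusted p = 0.554, edgeR) for F13a1, 1.18 for Pf4, 0.86 for Stab1, 0.84 for Cbr2, 0.80 for Cd163, 0.63 for Ms4a7 and 0.54 for Mrc1, and 0 had an unadjusted p below 0.05. Over all genes this library decided the count at that level, which was 1497 of 14950 genes without it. Without 4-PBA 3, the mouse with the highest Stab1, the value of Stab1 was 0.0196, and that of Pf4 was 0.15 without CVST+Ligation 3. Without 4-PBA 2 the values of Mrc1 (-0.39), Cbr2 (-0.0892) and Ms4a7 (-0.0959) were below 0, and 256 of 14921 genes had an unadjusted p below 0.05.

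Between the 4-PBA and CVST groups, which differ by both ligation and drug, 0 of the 7 genes had an adjusted p below 0.05 and 0 an unadjusted one, beside 0.122% and 15.4% of all genes tested. The groups overlapped for all 7, where they did not for 23.7% of all genes. F13a1 had the largest log2 fold change, 1.39 (SE 0.98, adjusted p = 0.546, edgeR), with a 95% interval from 0.571-fold to 11.98-fold. Ms4a7 (0.80, SE 0.67), Pf4 (0.78, SE 0.65), Cbr2 (0.25, SE 0.51), Cd163 (0.21, SE 0.57) and Stab1 (0.03, SE 0.44) were above 0 and Mrc1 (-0.33, SE 0.86) below it. The median was 0.25, beside -0.01 for all genes. Intervals of all 7 genes held a fold of 2. With a mouse left out F13a1 ran from 0.94 (without 4-PBA 3) to 2.54 (without CVST 2), Pf4 from 0.42 to 1.48 between the same mice, and Ms4a7 from 0.33 (without 4-PBA 2) to 1.41 (without CVST 2). Without CVST 2 the value of Mrc1 was 1.34 (SE 0.75, adjusted p = 0.461, edgeR). The library CVST+Ligation 2 enters this comparison only through the shared scaling, filter and spread. Without it the values of the 7 ran from -0.33 to 1.40 and 0 of the 7 passed, while 3.62% of all genes tested had an adjusted p below 0.05.

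**Figure D3:**
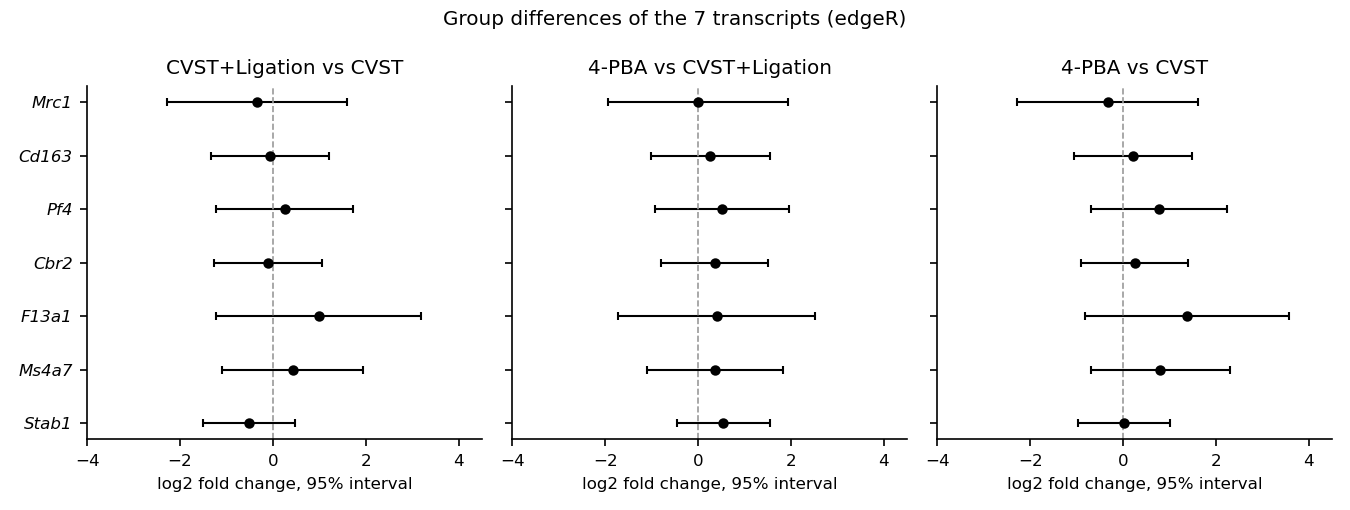
Log2 fold change of each of the 7 transcripts in the 3 comparisons, from edgeR's model of all 9 libraries, with points for the estimate, bars for the 95% interval and a dashed line at 0. All 21 intervals cross 0, and those of Mrc1 and F13a1 are the widest, reaching from 0.206-fold to 3.04-fold and from 0.429-fold to 9.13-fold after ligation.

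From mouse to mouse the 7 transcripts tended to run together. Over the 9 libraries Pearson's r of log2 CPM was above 0 for all 21 pairs, from 0.17 to 0.97 with a median of 0.58, and Spearman's rho ran from -0.07 to 0.97. In exact permutation tests, two-sided, 8 of the 21 pairs had an unadjusted p below 0.05 and 1 an adjusted one by r, while 2 did by rho. The 8 pairs had an r of at least 0.69, which 4.01% of the 103173 pairs of one of the 7 with another gene tested reached. The closest pair was Pf4 and F13a1, both genes of the clotting system, and the part of platelet RNA in their levels was not tested. Their r was 0.97 (n = 9, exact permutation p = 3.31e-05, adjusted over the 21 pairs 0.000694) and their rho 0.97 (exact permutation p = 0.000165, adjusted 0.00347). Of the other genes tested, 0 had a higher r with Pf4 than F13a1 did, and 1 had a higher r with F13a1 than Pf4 did. The r was 0.95 without the 2 libraries farthest from the median, 0.96 for deviations from the group means and 0.96 without CVST+Ligation 2. The mice with over 2 CPM of Pf4 were CVST 2, CVST+Ligation 2, 4-PBA 2 and 4-PBA 3, and the same 4 mice had the highest F13a1.

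Cbr2 and Ms4a7 formed the second closest pair. Their r was 0.85 (n = 9, exact permutation p = 0.00518, adjusted 0.0544) and their rho 0.90 (exact permutation p = 0.00203, adjusted 0.0213). A higher r with Cbr2 was found for 34 genes and a higher r with Ms4a7 for 86. Without the 2 farthest libraries r was 0.76, and without CVST+Ligation 2 it was 0.84 with an adjusted permutation p of 0.108. The relation passed the threshold by rank in all 9 libraries and did not by r, and by rank it did not pass without CVST+Ligation 2 (rho = 0.86, n = 8, adjusted exact permutation p = 0.113) or for deviations from the group means (rho = 0.82, adjusted exact permutation p = 0.0565). Its r for these deviations was 0.92, and by rank it passed with CPM scaled by total counts (adjusted exact permutation p = 0.0138). Mrc1 correlated with Pf4 (r = 0.79), Ms4a7 (0.76), F13a1 (0.74), Cbr2 (0.74) and Stab1 (0.66), and none of these passed after adjustment (adjusted exact permutation p from 0.0911 to 0.111). Between 54 and 385 genes had a higher r with Mrc1 than a given one of these 5 did. The rho of these 5 pairs ran from 0.60 to 0.78, with adjusted exact permutation p from 0.121 to 0.185. Their r for deviations from the group means ran from 0.73 to 0.82. By this r 7 of all 21 pairs passed after adjustment, though such deviations sum to 0 within each group. Cd163 ran least with the others, with r from 0.19 to 0.69 and a median of 0.35. The r of 5 pairs turned negative without the 2 farthest libraries, and 4 of these pairs involved Cd163. Ms4a7 and F13a1 rest on as few as 4 counts in a library, and the libraries also differed in depth and in the brain-region genes given above.

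**Figure D4:**
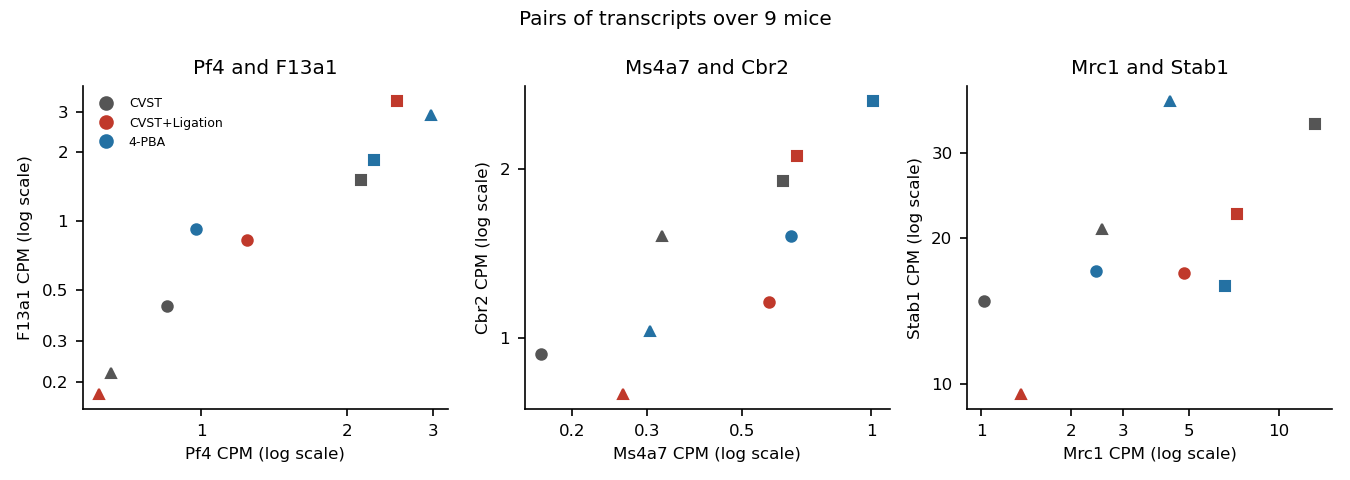
Levels of 3 pairs of transcripts in the 9 mice, in CPM on log axes, with colors for the groups and circles, squares and triangles for replicates 1, 2 and 3. Pf4 and F13a1 lie along a line (r = 0.97), Ms4a7 and Cbr2 scatter more (r = 0.85) and Mrc1 and Stab1 more still (r = 0.66), and each color is spread along the line.

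The genes whose pattern over the 9 libraries was most like the 7 were ranked by their median r with them, among 13699 other genes with a mean of at least 1 CPM. Among the top 10 were Cyp4f14 (0.80), Ephb4 (0.80), Mxra7 (0.80), Stom (0.79), Mxra8 (0.79), Lepr (0.79), Samhd1 (0.79), Lfng (0.79) and Anxa1 (0.78). Ephb4 encodes a receptor of venous endothelium, Lepr the leptin receptor and Samhd1 a nucleotide hydrolase of myeloid and other cells. A median r above 0.5 was found for 9.22% of all genes ranked. It was found for 66.7% of 15 meningeal fibroblast genes, 75.0% of 8 mural cell genes, 62.5% of 8 vascular endothelial genes, 57.1% of 7 MHC class II genes and 40.9% of 22 other border macrophage genes. It was found for 0 of 18 microglial genes, whose median was -0.08, and for 0 of 12 choroid plexus epithelial genes, whose median was 0.12. Ranges of the summed level of 4 defining fibroblast genes (Dcn, Lum, Col1a1, Slc22a6) were 42.0 to 93.4 CPM in the CVST group, 72.2 to 136 CPM in the CVST+Ligation group and 71.6 to 204 CPM in the 4-PBA group. Of the top 10 genes, 5 were still among the top 10 without CVST+Ligation 2, and a median r above 0.5 was then found for 6.58% of all genes, 60.0% of the fibroblast, 50.0% of the mural cell, 50.0% of the vascular endothelial, 57.1% of the MHC class II and 40.9% of the other border macrophage genes. The part of meningeal and vessel tissue in the levels of the 7 genes was not tested.

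Other genes of border-associated macrophages came from a list of 30, of which 22 were tested. The defining receptors Lyve1 and Folr2 were low, with 2 to 24 and 5 to 40 counts in a library, and Cd209f, a lectin of these cells, was at 0 in 5 of the 9 libraries. After ligation 1 of the 22 had an unadjusted p below 0.05 with a higher and 1 with a lower level, beside 5.47% and 4.18% of all genes, and none passed adjustment. The median log2 fold change of the list was -0.18. The higher gene was Cd38, an NAD hydrolase, at 3.58 ± 0.803 CPM in the CVST group and 8.31 ± 4.90 CPM in the CVST+Ligation group (log2 fold change 1.21, SE 0.38, adjusted p = 0.380, edgeR). The lower one was Igfbp4, which encodes a binding protein of insulin-like growth factors. It was at 70.2 ± 9.90 CPM in the CVST group, 27.3 ± 10.7 CPM in the CVST+Ligation group and 24.5 ± 5.81 CPM in the 4-PBA group, with a log2 fold change of -1.36 after ligation (SE 0.29, adjusted p = 0.250, edgeR) and -1.52 with 4-PBA against CVST (SE 0.29, adjusted p = 0.0545, edgeR). Igfbp4 is also made by neurons and vessel cells. Between the 4-PBA and CVST+Ligation groups 1 of the 22 was higher at an unadjusted p below 0.05 and 0 were lower, beside 1.81% and 1.42% of all genes, with a median of 0.67 for the list. That gene was Tgfbi, an extracellular matrix protein induced by TGF-beta, at 33.3 ± 22.1 against 12.1 ± 8.18 CPM. Between the 4-PBA and CVST groups 3 of the 22 were higher (Cd36, Cd38 and Ednrb) and 1 lower (Igfbp4), beside 8.07% and 7.33%, with a median of 0.51. Cd36, a lipid scavenger receptor, was at 1.096 ± 0.547 CPM in the CVST group, 1.68 ± 1.02 CPM in the CVST+Ligation group and 3.80 ± 0.603 CPM in the 4-PBA group (log2 fold change 1.80 against CVST, SE 0.54, adjusted p = 0.160, edgeR). Ednrb encodes an endothelin receptor that astrocytes also express, and Gas6, a ligand of phagocytic receptors, had the highest mean level of the list. The list's median without CVST+Ligation 2 was -1.07 after ligation, with 1 gene higher and 3 lower, beside 4.65% and 3.42% of all genes in that fit, and 1.31 between 4-PBA and CVST+Ligation, where 5 genes were higher (Tgfbi, Lyz2, Folr2, Siglec1 and Clec4n), beside 5.37%. In that fit Igfbp4 was called between 4-PBA and CVST (log2 fold change -1.50, SE 0.22, adjusted p = 0.0161, edgeR). Without CVST+Ligation 3, 4 of the 22 were higher after ligation, beside 6.53% of all genes, and 0 between 4-PBA and CVST+Ligation, beside 1.29%, with medians of 0.13 and 0.42. Without 4-PBA 3 the median between 4-PBA and CVST+Ligation was 0.14, with 0 higher and 1 lower, beside 2.16% and 1.83%. Against CVST 1 was higher without CVST 1 and 6 without CVST 2, beside 6.50% and 7.92%.

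Genes of the MHC class II pathway, by which a part of border-associated macrophages presents antigen, were all 7 tested. After ligation and between 4-PBA and CVST+Ligation 0 of them had an unadjusted p below 0.05, and between 4-PBA and CVST 3 were higher and 0 lower, beside 8.07% and 7.33% of all genes, with none called after adjustment. Their medians were 0.83, 0.51 and 1.57 in these comparisons, with 3, 2 and 3 of the 7 genes below 0. Cd74, the invariant chain, was at 3.19 ± 1.46 CPM in the CVST group, 7.41 ± 5.99 CPM in the CVST+Ligation group and 11.99 ± 7.45 CPM in the 4-PBA group, with a log2 fold change of 1.91 between 4-PBA and CVST (SE 0.63, adjusted p = 0.198, edgeR). The chains H2-Aa (1.80, SE 0.74) and H2-Eb1 (1.57, SE 0.63) were the others. Summed over the 7 MHC class II genes, the highest levels were those of 4-PBA 2 (78.4 CPM) and CVST+Ligation 2 (58.6 CPM). The counts turned with these mice. Their median without CVST+Ligation 2 was -0.38 after ligation, and 4 of the 7 were higher between 4-PBA and CVST+Ligation, with a median of 1.60, beside 5.37% of all genes in that fit. Between 4-PBA and CVST 0 were higher without 4-PBA 2, CVST 1 or CVST 3, beside 5.58%, 6.50% and 7.66% of all genes.

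Genes of hemoglobin uptake and heme breakdown, the pathway that CD163 feeds, were 15, all tested. In each of the 3 comparisons 0 of the 15 had an unadjusted p below 0.05, beside 9.64%, 3.23% and 15.4% of all genes, with medians of -0.06, 0.07 and -0.03. Without CVST+Ligation 2, 1 was lower after ligation and 1 higher between 4-PBA and CVST+Ligation at that level, in both cases Trf, beside 3.42% and 5.37% of all genes. Hmox1, the inducible heme oxygenase, was at 21.0 ± 8.60 CPM in the CVST group and 12.5 ± 0.153 CPM after ligation (log2 fold change -0.74, SE 0.63, adjusted p = 0.715, edgeR). The most abundant of the list were the ferritin chain Fth1, the iron carrier Trf and Lrp1, a receptor for hemopexin-bound heme. Of 15 other tested endocytic and scavenger receptor genes, 2 were lower and 0 higher after ligation at an unadjusted p below 0.05, beside 4.18% and 5.47% of all genes, the lysosomal glycoprotein gene Cd68 (-0.78, SE 0.30) and Fcer1g (-0.77, SE 0.31), which encodes a signalling chain of Fc receptors. None was at that level between 4-PBA and CVST+Ligation. Against CVST, the 4-PBA mice had higher Cd36 at that level, and Scarb1 and Scara3 were lower, beside 8.07% and 7.33% of all genes. After ligation 0 of the 15 were lower without CVST+Ligation 1 or CVST+Ligation 2 and 4 without 4-PBA 3, beside 3.06%, 3.42% and 4.37% of all genes. Against CVST 7 were lower without 4-PBA 3 and 0 without 4-PBA 1, beside 7.37% and 4.20%.

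Of 14 genes of alternative activation, a macrophage state under IL-4 and IL-13 in which Mrc1 is high, 2 were higher and 2 lower after ligation at an unadjusted p below 0.05, beside 5.47% and 4.18% of all genes. Pparg, a nuclear receptor, was at 7.84 ± 1.21 CPM in the CVST group, 4.06 ± 0.534 CPM in the CVST+Ligation group and 2.71 ± 0.651 CPM in the 4-PBA group. Its log2 fold change was -0.95 after ligation (SE 0.26, adjusted p = 0.308, edgeR) and -1.53 between 4-PBA and CVST (SE 0.26, adjusted p = 0.0518, edgeR). Egr2 (-2.16, SE 0.91) was the other lower gene, and Klf4 (0.85, SE 0.32) and Mgl2 were higher, the latter from 0.160 ± 0.0677 CPM, about the level of 3 counts, to 0.778 ± 0.356 CPM. With 4-PBA against CVST+Ligation 0 of the 14 had an unadjusted p below 0.05, and against CVST 1 was higher (Mgl2) and 2 were lower (Pparg and Ccl17), beside 8.07% and 7.33% of all genes. After ligation 0 of the 14 were higher and 2 lower without CVST+Ligation 2, beside 4.65% and 3.42% of all genes. Pparg was called between 4-PBA and CVST without that library (-1.52, SE 0.26, adjusted p = 0.0227, edgeR) and without CVST 3 (-1.65, SE 0.28, adjusted p = 0.0434, edgeR). Without CVST 2, 0 were higher after ligation, beside 5.05%. Stat3, Tgm2 and Il4ra were the most abundant of the list, and Egr2, Klf4 and Pparg are also expressed outside macrophages.

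Among 14 growth factor and transcription factor genes of macrophages, 4 were lower and 0 higher after ligation at an unadjusted p below 0.05, beside 4.18% and 5.47% of all genes, and none passed adjustment. Spi1, which encodes PU.1, was at 10.8 ± 1.44 CPM in the CVST group and 6.13 ± 0.222 CPM after ligation (log2 fold change -0.81, SE 0.30, adjusted p = 0.431, edgeR). Among the others, Il34, a neuronal ligand of the CSF1 receptor, was at -0.55 (SE 0.24), and Nr4a1, an immediate early gene of neurons and myeloid cells, at -1.80 (SE 0.45). The ligand gene Csf1 was at 0.04 (SE 0.21). In 4-PBA against CVST+Ligation mice 0 of the 14 had an unadjusted p below 0.05, and against CVST mice 5 were lower and 0 higher, beside 7.33% and 8.07% of all genes. Against CVST 3 to 5 were lower with a mouse left out, 3 without 4-PBA 1, beside 4.20% of all genes in that fit. After ligation 1 to 4 were lower with a mouse left out, 1 without CVST 2 and 2 without CVST 1, CVST+Ligation 3 or 4-PBA 2, beside 3.06% to 5.09% of all genes over these fits. Nr4a1 was called between 4-PBA and CVST without CVST+Ligation 2 (-2.31, SE 0.47, adjusted p = 0.0366, edgeR), and without CVST 2 it was called in that comparison (adjusted p = 0.00103, edgeR) and after ligation (-2.24, SE 0.16, adjusted p = 0.00495, edgeR).

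Microglial genes gave a reference for the other resident macrophages of the brain. Of 18, all tested, 10 were lower and 0 higher after ligation at an unadjusted p below 0.05, beside 4.18% and 5.47% of all genes, and the groups did not overlap for 10, beside 13.8% of all genes, while none passed adjustment. The median log2 fold change was -0.49. C1qc, a chain of the complement component C1q, was at 108 ± 16.1 CPM in the CVST group, 64.9 ± 0.285 CPM in the CVST+Ligation group and 69.7 ± 16.5 CPM in the 4-PBA group, with a log2 fold change of -0.73 after ligation (SE 0.18, adjusted p = 0.288, edgeR). Trem2 (-0.61, SE 0.17), C1qb (-0.60, SE 0.19) and Aif1 (-0.76, SE 0.25) followed. Csf1r was at -0.26 (SE 0.14), Tmem119 at -0.26 (SE 0.18) and P2ry12 at -0.06 (SE 0.27). The SEs of these genes were smaller than the 0.44 to 0.98 of the 7 border macrophage genes in the same comparison, and the value of C1qc lay within the 95% interval of each of the 7. Whether the 2 groups of genes differed in their response was not tested. Between 4-PBA and CVST+Ligation 0 of the 18 had an unadjusted p below 0.05, with a median of 0.04, and between 4-PBA and CVST 8 were lower and 0 higher, beside 7.33% and 8.07% of all genes. With a mouse left out, 5 to 10 were lower after ligation, 5 without CVST 2 or CVST+Ligation 3 and 6 without CVST+Ligation 2, beside 3.48%, 4.56% and 3.42% of all genes in these fits. Between 4-PBA and CVST 3 to 9 were lower, 3 without 4-PBA 1 or 4-PBA 2 and 4 without CVST 2, beside 4.20%, 5.15% and 6.23%, and Fcrls was called without 4-PBA 3 (-1.64, SE 0.20, adjusted p = 0.0316, edgeR).

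**Figure D5:**
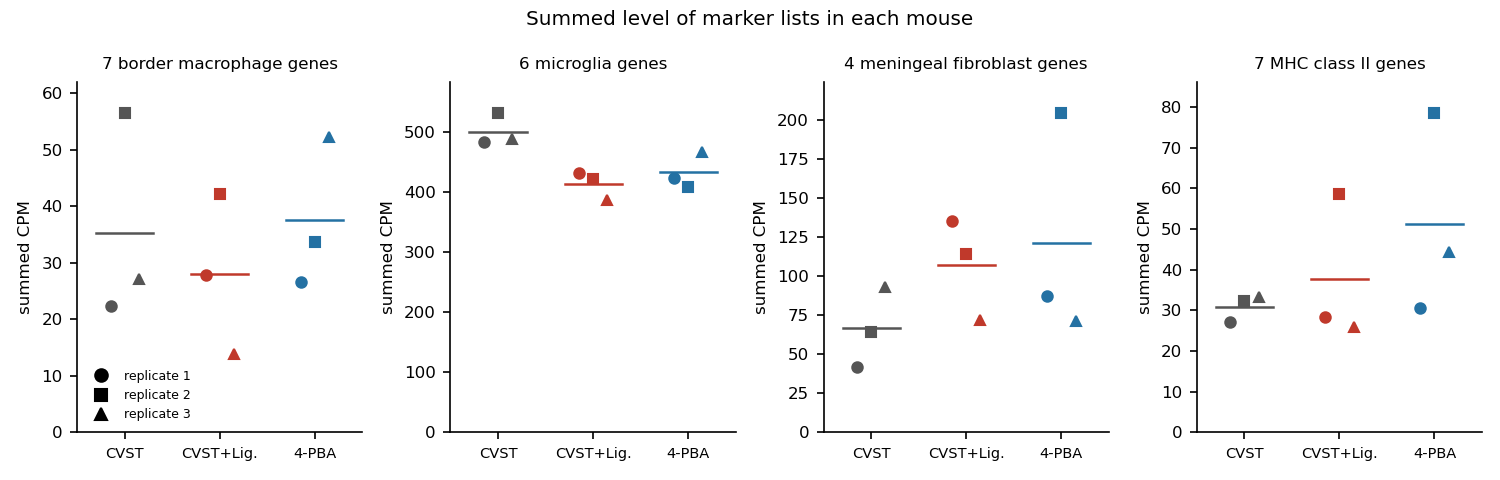
Summed CPM in each mouse of the 7 border macrophage genes, 6 defining microglial genes, 4 defining meningeal fibroblast genes and 7 MHC class II genes, by group, with linear axes from 0, symbols for the replicate number and bars for the mean of 3 mice. The 3 CVST mice (483 to 531 CPM) lie above all others for the microglial sum (388 to 467 CPM), while for the 7 border macrophage genes the groups overlap, at 22.3 to 56.4, 13.8 to 42.2 and 26.7 to 52.3 CPM.

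The defining genes of monocytes were sparse, as were Retnlg and Ly6g among those of neutrophils. The neutrophil genes S100a8 and S100a9 reached 100 and 135 counts, both in 4-PBA 3. The monocyte genes Ccr2, Ly6c2 and Plac8 summed to 0.255 to 1.87 CPM over the 9 mice and the neutrophil genes S100a8, S100a9, Retnlg and Ly6g to 0.661 to 9.41 CPM, with ranges that overlapped between the groups. The whole list of 12 monocyte genes, which holds genes of other cells such as Fn1 and Vcan, summed to 137 to 294 CPM. Red cell genes summed to 152 to 330 CPM over the 9 mice, and of 5 tested 2 were higher and 0 lower after ligation (Hbb-bs, 0.65, SE 0.24, and Hbb-bt, 0.57, SE 0.25), beside 5.47% and 4.18% of all genes, and with a mouse left out 0 were higher without CVST 1, CVST 3, CVST+Ligation 1 or CVST+Ligation 2 and all 5 without CVST+Ligation 3, beside 4.93%, 5.15%, 5.35%, 4.65% and 6.53%. Genes of T cells and B cells summed to 13.02 to 33.2 CPM in the CVST group, 3.43 to 5.54 CPM in the CVST+Ligation group and 2.98 to 9.17 CPM in the 4-PBA group. Of 4 tested, 2 were lower and 0 higher after ligation, Cd4 (-4.43, SE 0.95, adjusted p = 0.271, edgeR) and Trbc2 (-2.36, SE 0.60, adjusted p = 0.294, edgeR), beside 4.18% and 5.47% of all genes. Trbc2 was at -3.43 between 4-PBA and CVST (SE 0.64, adjusted p = 0.0545, edgeR), and it was called in that comparison without CVST+Ligation 2, CVST 3 or 4-PBA 3 (adjusted p of 0.0288, 0.0489 and 0.0329, edgeR). The sum of the choroid plexus epithelial genes Ttr, Kl, Folr1 and Kcnj13 ran from 13.5 CPM in a CVST+Ligation mouse to 3100 CPM in a 4-PBA mouse, that of all 12 genes of the list from 352 to 4420 CPM, and of the 12 7 were higher in the 4-PBA than in the CVST+Ligation group at an unadjusted p below 0.05, beside 1.81% of all genes, and 4 without 4-PBA 1, beside 2.30%. Of 15 meningeal fibroblast genes 0 had an unadjusted p below 0.05 after ligation, with a median of 0.48, which was -0.02 without CVST+Ligation 2. Between 4-PBA and CVST+Ligation 2 of the 15 were higher, beside 1.81% of all genes, and between 4-PBA and CVST 4 were higher, beside 8.07%, with medians of 0.22 and 0.65. Without 4-PBA 2, 0 were higher in either comparison, beside 0.985% and 5.58%. The choroid plexus and the meninges are both sites of border-associated macrophages, and their share in each piece of tissue was not measured apart from these genes.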

How the data were processed

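Brain RNA of 9 mice was sequenced on a NovaSeq X Plus after TRIzol extraction. The authors' methods name fastp for read filtering, HISAT2 (orientation mode) for alignment, StringTie for assembly and RSEM for quantification, and the submitters' processing notes give the build as mm10 (GRCm38). RSEM is named for the normalized values. Versions, the annotation, which program made the raw counts and whether these used strand are not given in the sources used here. The authors deposited raw read counts per gene symbol and a matrix that the methods call TPM. The deposited matrix is FPKM, since each value equals the count divided by the library total and 1 length per gene (17446 genes, largest relative error 4.42e-16). Of these lengths 74.8% are multiples of 3, so most are coding lengths.

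Counts were scaled by TMM in edgeR 4.0.16 (R 4.3.3), filtered with filterByExpr (14746 genes) and fitted with the quasi-likelihood test in 1 model of the 3 groups without covariates, with Benjamini-Hochberg adjustment over all genes tested. The smallest p an exact permutation test of 1 gene allows with 3 mice a group is 0.1. Pairs were tested by exact permutation over all orders of the 9 libraries. According to the methods each library was a separate mouse, and the labels give no batches. No library repeated another of its group (chi-square of counts at least 22.3 times its degrees of freedom). The genes and lists were chosen with earlier results of these data known. From a list, the 4 genes with the smallest p and, in the nearest lists, the 3 most abundant were eligible to be named, and H2-Aa, H2-Eb1, Csf1, Hmox1, Tmem119 and P2ry12 were named for their roles. Values of some genes that this rule covers are not reported here. Promoter sequences came from RefSeq and positions from GENCODE, both of the authors' build. Alternatives were DESeq2 1.42.0, 2 other scalings, 2 other filters, a fit of only the groups compared, a replicate block, limma 3.58.1 on log2(FPKM + 1) and log2(FPKM + 0.1), which had been planned for TPM, and each library left out. The pairs and likeness without CVST+Ligation 2, the lists with each library left out and the longest transcript lengths were added after seeing the data. Scripts were tested on simulated data, and plots were drawn with matplotlib 3.10.9.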

Additional observations from a re-analysis of the deposited data

How the results depend on the processing

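In every alternative and in every comparison 0 of the 7 genes had an adjusted and 0 an unadjusted p below 0.05, and 5 of the 7 could be tested where at least 10 counts in every library were required. The smallest adjusted p of any of the 7 in any alternative was 0.554 after ligation, 0.554 between 4-PBA and CVST+Ligation and 0.330 between 4-PBA and CVST. Of 124 alternative values in each of these comparisons, 13, 7 and 9 had the opposite sign of the reported log2 fold change, and none of these was called under either setting. The counts over all genes depended on the tool, the filter, the groups fitted and single libraries. In these comparisons edgeR called 3, 0 and 18 genes and DESeq2 264, 22 and 855. Between 4-PBA and CVST edgeR called 112 with all genes of at least 1 count, 6 with at least 10 counts in every library, 25 with the replicate block, 234 with only the groups compared and 2 to 541 with a library left out, the most without CVST+Ligation 2, and limma called 87 and 134 with pseudocounts of 1 and 0.1. After ligation the alternatives other than DESeq2 called 0 to 13, and between 4-PBA and CVST+Ligation 0 to 2.

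The replicate numbers were used as a block although they do not pair the mice, since only 3 of 9 same-numbered pairs correlated above 0.1 (r from -0.052 to 0.313). With this block the log2 fold change of Mrc1 was 0.11 after ligation and 0.18 between 4-PBA and CVST, and no call on the 7 genes changed. After ligation Mrc1 was 0.13 with limma on log2(FPKM + 0.1), and Cd163 was 0.00463 with log2(FPKM + 1) and 0.0341 with log2(FPKM + 0.1). For 4-PBA against CVST Mrc1 was 0.0208 and 0.29 in these fits. Leaving out each library in turn, values after ligation ran from -0.87 to 1.33 for Mrc1, -0.58 to 0.47 for Cd163, -0.39 to 0.95 for Pf4, -0.57 to 0.17 for Cbr2 and -0.52 to 2.13 for F13a1. Between 4-PBA and CVST+Ligation they ran from -0.43 to 0.54 for Mrc1, -0.0817 to 0.80 for Cd163, -0.0892 to 0.84 for Cbr2, -0.13 to 1.92 for F13a1 and -0.10 to 0.72 for Ms4a7. Those of Pf4 ran from 0.15 to 1.18 and of Stab1 from 0.0196 to 0.86. For 4-PBA against CVST they ran from -0.82 to 1.34 for Mrc1, -0.20 to 0.75 for Cd163, -0.20 to 0.52 for Cbr2 -0.50 to 0.43 for Stab1, 0.94 to 2.54 for F13a1 (0.51 to 1.89 in the other alternatives), 0.42 to 1.48 for Pf4 and 0.33 to 1.41 for Ms4a7. The cause was not tested. Of the 21 pairs, 1 passed by r after adjustment of the exact permutation test, 7 passed with deviations from the group means, which sum to 0 within each group, 2 with CPM scaled by total counts and 1 without CVST+Ligation 2. By rho 2 pairs passed, 2 with CPM scaled by total counts, 1 with deviations from the group means and 1 without CVST+Ligation 2. At 4 to 24 counts the depth limited Ms4a7 most.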
